A study of Homo sapiens with 14 samples.

Results

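Olfactory receptor genes were examined as a set of 396 windows among the 28159 windows of 1000 bp that the deposited count table places at gene starts (1.41%). The members were the rows with a curated RefSeq mRNA accession whose symbol is OR followed by a family number, subfamily letters and a member number, so values of the libraries played no part in their choice. The libraries came from HCT116 cells, a wild-type human colorectal carcinoma line, in which RNA polymerase II phosphorylated on serine 5 of its C-terminal domain was immunoprecipitated with the antibody 3E8 and sequenced (ChIP-seq). Cells were electroporated with 10 µM of an inhibitory peptide or with water. They were then kept for 3 h in medium with 0.1% DMSO or with 10 µM Nutlin3a, a small molecule that releases the tumour suppressor p53 from its inhibitor MDM2. Cells given peptide by electroporation also had 200 nM of it in the medium. The ChIP groups were DMSO with water (replicates 1 and 2), Nutlin3a with water (replicates 1 and 2), DMSO with peptide (replicate 2) and Nutlin3a with peptide (replicate 2). Input, sheared chromatin sequenced without immunoprecipitation, was sequenced for the same 4 conditions in replicates 1 and 2, so there were 6 ChIP and 8 input libraries. The labels do not say that replicates were separate cultures, all come from 1 line, and p-values then measure only the spread between these libraries, which may be technical.

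Olfactory receptors are G protein coupled receptors that bind odorants in sensory neurons of the nose. A mature neuron transcribes 1 allele of 1 receptor gene, and the many other members of the family, which lie in clusters on several chromosomes, are held silent in heterochromatin. The proteins divide into class I, the families numbered from 51 upwards that are related to receptors of fish, and class II, the remaining families. Serine 5 phosphorylated polymerase marks the start of transcription and early elongation, so windows of genes that a cell does not transcribe serve as a gauge of the background in a polymerase ChIP.

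The members spread over 18 chromosomes, with 171 on chromosome 11, 62 on chromosome 1, 26 on chromosome 14 and 25 on chromosome 9. There were 56 windows of class I and 340 of class II. The windows were 390 distinct ones, because 11 members shared their exact window with another member, among them OR2A1 with OR2A42 and OR9G1 with OR9G9. Of the 396, 12 overlapped another window and 1 of these, OR9G4, overlapped a window of no member. Reads of near-identical receptor genes may be shared or lost, and how reads that fit several places were treated is not given in the sources used here.

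To show what lies under these windows, 4 promoter sequences are printed, from 250 bases before to 50 after the annotated start. They belong to the highest and lowest members by mean level over the 14 libraries, among the 156 members whose RefSeq promoter lay wholly inside the window and that shared it with no other member. Capitals mark each CG dinucleotide. Sequences and positions are from RefSeq on GRCh38.p14, and the highest members are OR1F1 (chr16:3187954-3188253, plus strand) and OR2L13 (chr1:247936927-247937226, plus strand).
OR1F1: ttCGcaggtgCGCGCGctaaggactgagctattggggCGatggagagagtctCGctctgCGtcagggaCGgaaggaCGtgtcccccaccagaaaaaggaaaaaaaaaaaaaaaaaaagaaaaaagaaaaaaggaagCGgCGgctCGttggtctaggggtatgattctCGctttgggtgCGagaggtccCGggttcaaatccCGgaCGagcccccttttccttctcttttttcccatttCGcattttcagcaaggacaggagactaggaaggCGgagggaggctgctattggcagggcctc
OR2L13: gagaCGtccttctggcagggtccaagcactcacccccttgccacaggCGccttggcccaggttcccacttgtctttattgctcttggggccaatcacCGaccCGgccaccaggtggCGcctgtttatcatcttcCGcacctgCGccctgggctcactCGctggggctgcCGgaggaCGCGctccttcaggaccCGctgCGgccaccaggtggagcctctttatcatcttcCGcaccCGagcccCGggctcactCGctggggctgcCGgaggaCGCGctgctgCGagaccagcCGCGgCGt
The lowest members are OR5D13 (chr11:55773188-55773487, plus strand) and OR52N5 (chr11:5778618-5778917, minus strand).
OR5D13: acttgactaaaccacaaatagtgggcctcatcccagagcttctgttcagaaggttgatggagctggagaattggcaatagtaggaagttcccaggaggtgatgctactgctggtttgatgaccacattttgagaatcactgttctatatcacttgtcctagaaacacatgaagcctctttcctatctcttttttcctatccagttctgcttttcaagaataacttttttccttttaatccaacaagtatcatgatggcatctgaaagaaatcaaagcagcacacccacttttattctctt
OR52N5: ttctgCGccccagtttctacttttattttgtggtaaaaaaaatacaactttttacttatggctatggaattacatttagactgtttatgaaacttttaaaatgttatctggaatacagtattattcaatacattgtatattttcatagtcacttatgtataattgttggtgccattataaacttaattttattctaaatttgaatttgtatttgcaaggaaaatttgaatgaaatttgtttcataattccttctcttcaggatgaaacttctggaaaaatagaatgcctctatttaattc

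The promoters of OR1F1 and OR2L13 held 19 and 24 CG dinucleotides in 300 bases, and those of OR5D13 and OR52N5 held 0 and 1. Their mean levels over the 14 libraries were 41.0 and 20.7 CPM (each count taken relative to its library's total over all windows) against 0.143 and 0.117 CPM. OR1F1 and OR2L13 had 15.4 and 8.23 CPM in ChIP and 60.2 and 30.1 CPM in input. OR5D13 and OR52N5 each had 3 counts in all ChIP libraries and 0 in all inputs. These 4 are extremes, and a tie between CG number and level was not tested. The window of OR1F1 also held a transfer RNA gene, TRP-TGG3-5 (chr16:3188094-3188165), and that of OR2L13 overlapped the pseudogene CLK3P2. A RefSeq promoter was found for 304 of the 396 members (76.8%), too few for a check of base composition over the whole set, which is void. Among those 304, the median GC content was 37.3% (24.3% to 71.3%) against 58.7% over all 35116 promoters of the table. The median number of CG dinucleotides was 1 against 14, and 21.4% against 3.96% had none. The letters TATAAA, searched on both strands, were present in 35.5% of the 304 and in 11.5% of all promoters. TAATTA, the core letters bound by many homeodomain proteins and its own reverse complement, was in 22.7% against 4.84%. CCCNNGGG, the palindrome core of sites bound by EBF factors, was in 6.91% against 19.1%. These matches describe letters only.

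The windows were not placed by strand. Of the 173 plus-strand promoters matched, 90 had the start inside the window, and 78 of these windows began 300 bases upstream of it. Of 131 on the minus strand, 70 had the start inside, and 62 of these windows reached 700 bases upstream. The rest of the matched windows did not hold the start given in that promoter table, and what they cover was not tested.

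The ChIP libraries held 1290223 to 2240951 counts over all windows and the inputs 161719 to 359276, so a single receptor window rests on few reads. Of 14 colon epithelial genes, 6 were higher in ChIP than in input (42.9%, beside 24.5% of all windows), keratins KRT8, KRT18 and KRT19, claudins CLDN4 and CLDN7, and EPCAM. ASCL2 was lower, and the other 7, among them CDH1, CLDN3, LGALS4, TFF3 and CDX1, were not called. The median log2 difference of the 14 was -0.01. CDX2, a colon transcription factor, had 30.0 CPM in ChIP and 35.3 CPM in input and was not called, and the window of VIL1, villin, had 7.80 CPM and 20.7 CPM. Blood, fibroblast or endothelial, and olfactory neuron marker lists had none higher in ChIP (0 of 5, 0 of 6 and 0 of 3 tested). Of those tested, 1, 3 and 2 were lower (edgeR's quasi-likelihood test, adjusted p under 0.05). These are 20%, 50% and 66.7%, beside 11.5% of all windows. The lists held 7, 9 and 5 genes, and the others were too low to be tested. With so few genes, the shares lower say little about cell type.

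Receptor windows took a smaller share of the counts in 5 of the 6 ChIP libraries than in any input. In ChIP the share was 0.139% and 0.100% in DMSO replicates 1 and 2, 0.110% in DMSO with peptide, 0.321% and 0.124% in Nutlin3a replicates 1 and 2, and 0.0938% in Nutlin3a with peptide. The library of Nutlin3a replicate 1 stood apart from the other 5, and its exact 95% binomial interval of 0.311% to 0.331% met none of theirs. In the inputs the share was 0.351% and 0.269% in DMSO, 0.252% and 0.216% in DMSO with peptide, 0.331% and 0.298% in Nutlin3a, and 0.383% and 0.313% in Nutlin3a with peptide (replicates 1 and 2). The input of Nutlin3a replicate 1 lay inside the range of the other inputs. The mean was 0.148% ± 0.0863 (SD, n = 6) in ChIP and 0.302% ± 0.0546 (SD, n = 8) in input. Without Nutlin3a replicate 1, the ChIP mean was 0.114% ± 0.0181 (SD, n = 5). Intervals cover counting error only.

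**Figure D1:**
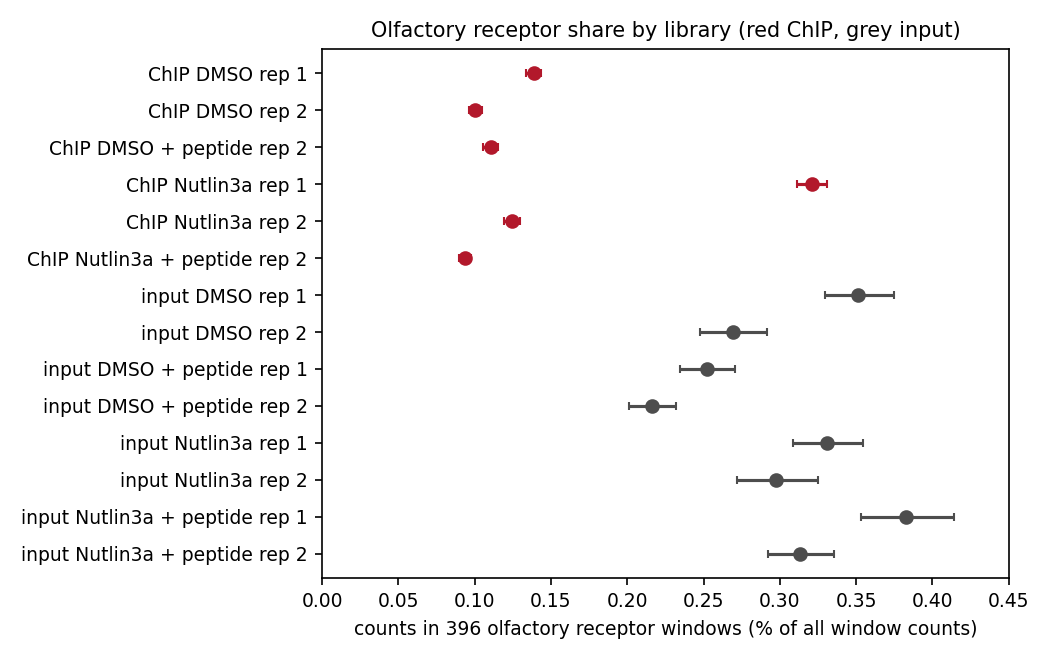
Counts in the 396 olfactory receptor windows as a percent of all window counts, 1 point per library (red ChIP, grey input) with exact 95% binomial intervals. ChIP of Nutlin3a replicate 1 (0.321%) lies among the inputs, and the other 5 ChIP libraries lie between 0.0938% and 0.139%.

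Divided by the share in the same-titled input, the ChIP share was 0.299 to 0.971, with a median of 0.406, and the highest value was that of Nutlin3a replicate 1. The same ratio was 0.315 to 0.591 for 92 keratin associated protein windows, genes of hair and skin. It was 0.535 to 2.21 for 24 bitter taste receptor (TAS2R) windows and 2.79 to 3.19 for 77 ribosomal protein windows, which serve as active genes. Ribosomal protein windows had 17.5 times the mean CPM of receptor windows in Nutlin3a replicate 1, and 41.8 to 67.4 times in the other 5 ChIP libraries. In the inputs that ratio was 5.51 to 8.62. The mean level of a ribosomal protein window was 142 CPM in Nutlin3a replicate 1, within the 131 to 160 CPM of the other ChIP libraries. Keratin associated protein windows had 8.10 CPM there, also within the 5.54 to 9.26 CPM of the others. TAS2R windows had 6.78 CPM there against 0.768 to 2.04 CPM, so they stood apart in that library as the receptor windows did.

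Most receptor windows were low. The median over members of the mean CPM was 2.67 in ChIP and 4.90 in input, beside 15.7 and 28.5 over all windows. Only 9 members reached the ChIP median of all windows and 10 the input median. In 123 members (31.1%) the mean ChIP CPM was over the mean input CPM, beside 36.5% of all windows. It was at least 2 times as high in 64. These include the 39 members without a read in any input, which meet this at any ChIP level. The share of all windows that reach it was not counted. The windows without a read numbered 27 and 90 in ChIP of DMSO replicates 1 and 2 and 84 in DMSO with peptide. They numbered 3 and 58 in Nutlin3a replicates 1 and 2 and 104 in Nutlin3a with peptide. Nutlin3a replicate 1 had the fewest windows at 0 and also the fewest counts in all. The same held over all windows, of which 0.522% were at 0 in that library and 2.10% to 5.49% in the other ChIP libraries. Among receptor windows these shares were 0.758% and 6.82% to 26.3%. In the inputs 133 to 239 windows were at 0. No window was at 0 in all 14 libraries, and 39 were at 0 in all 8 inputs, which together held 1981531 counts over all windows. The median window had 6.98 CPM in Nutlin3a replicate 1, and 0.892 to 2.29 CPM in the other ChIP libraries.

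**Figure D2:**
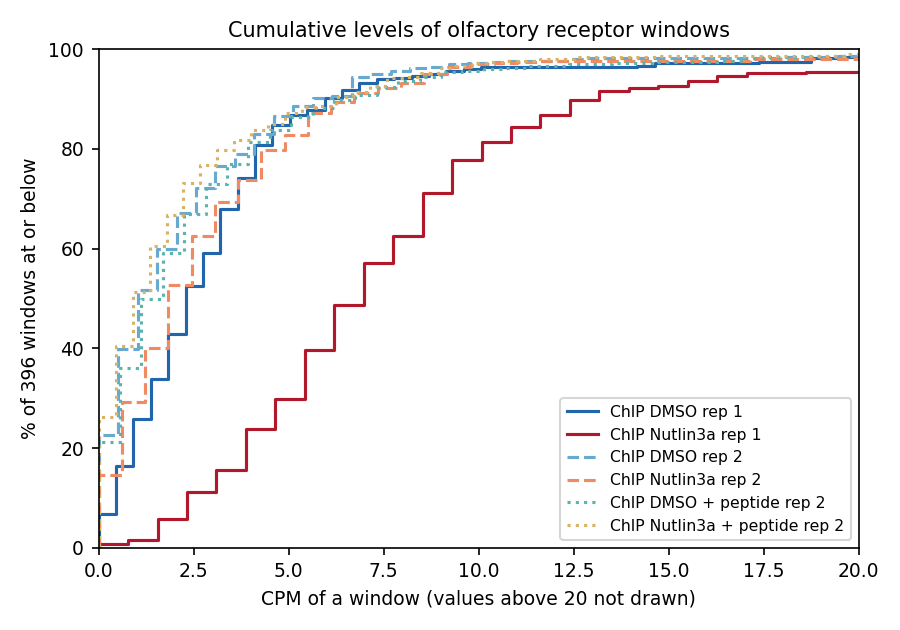
Percent of the 396 receptor windows at or below a given CPM in each ChIP library. The curve of Nutlin3a replicate 1 is shifted to the right over its whole course, with a median of 6.98 CPM, while the other 5 lie close together.

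The higher level in Nutlin3a replicate 1 was not confined to 1 cluster. On chromosome 11 the mean receptor window had 7.98 CPM in that library and 1.97 to 3.91 CPM in the other ChIP libraries. On chromosome 1 these values were 7.14 CPM and 1.84 to 2.57 CPM, and on chromosome 14 they were 7.75 CPM and 1.00 to 2.05 CPM. In each of the 10 chromosomes with at least 10 members, its mean was above that of every other ChIP library. Across members, windows ranked alike among the ChIP libraries of replicate 2 (Spearman's rho 0.577 to 0.697, over 396 windows that share library and depth). The ranks of Nutlin3a replicate 1 were less close to those of the other ChIP libraries (rho 0.309 to 0.426) and to those of the inputs (0.208 to 0.291). DMSO replicate 1 was not compared apart with replicate 2, so these values do not show whether this is particular to Nutlin3a replicate 1 or shared by replicate 1.

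Levels also differed among members by place and family. Class I windows outside the segment around OR51B5 described below had a mean of 3.03 CPM in ChIP and 6.81 CPM in input (47 windows), and class II windows had 3.45 and 7.63 CPM. Among the 10 chromosomes with at least 10 members, chromosome 7 was highest, with 8.80 CPM in ChIP and 21.8 CPM in input over 16 windows, and 8 of these belong to subfamily OR2A. Chromosome 19 followed in input with 13.9 CPM, against 4.72 CPM in ChIP. Family 5 was low in both, at 1.91 and 3.26 CPM over 48 windows. A window was called active when its ChIP level was at least 20 CPM and at least 2 times input. Distances were grouped without the segment around OR51B5 and without members that share their exact window. The OR51B5 start window itself met the rule, with 36.8 CPM in ChIP and 1.52 CPM in input, so receptor windows close to it are not counted here. Of the members left, the 16 within 100 kb of an active window had means of 4.83 CPM in ChIP and 11.6 CPM in input. The 95 more than 1 Mb from any had 2.81 and 5.78 CPM, so among these members ChIP and input fell together with distance. Neighbours in these orders were not tested against each other.

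Against input, receptor windows were rarely called higher in ChIP. After a filter of a mean of 5 CPM over the 14 libraries, 174 of the 396 members were tested, and 26 were lower and 1 higher (edgeR's quasi-likelihood test, p adjusted by Benjamini-Hochberg over 24571 windows, threshold 0.05). These are 14.9% and 0.575% of the members tested, and of all windows tested 11.5% were lower and 24.5% higher, so the share lower was near that of all windows and the share higher was under it. The median log2 difference between ChIP and input was -0.98 over the 174 members and -0.07 over all windows, and 23 of the 174 were above 0. A low window passes this filter more easily through its input, which is 8 of the 14 libraries and holds about 2 times the receptor CPM of ChIP, so these are not values of all members. With no filter the median was -0.11 over all 396 members, with 183 above 0, beside 0.01 over all windows, and 29 (7.32%) were lower and 3 (0.758%) higher, beside 11.1% and 21.0% of all windows. These values are relative to the scaling of each library and are no absolute enrichment. With total counts in place of TMM, 53 were lower and 0 higher, and among all windows 5583 were lower and 3697 higher, against 2836 and 6010 with TMM. With the ChIP and input libraries of Nutlin3a replicate 1 left out together, an alternative chosen after seeing the data, 7 of 161 members (4.35%) were lower and 1 higher, beside 4.79% and 18.3% of all windows.

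**Figure D3:**
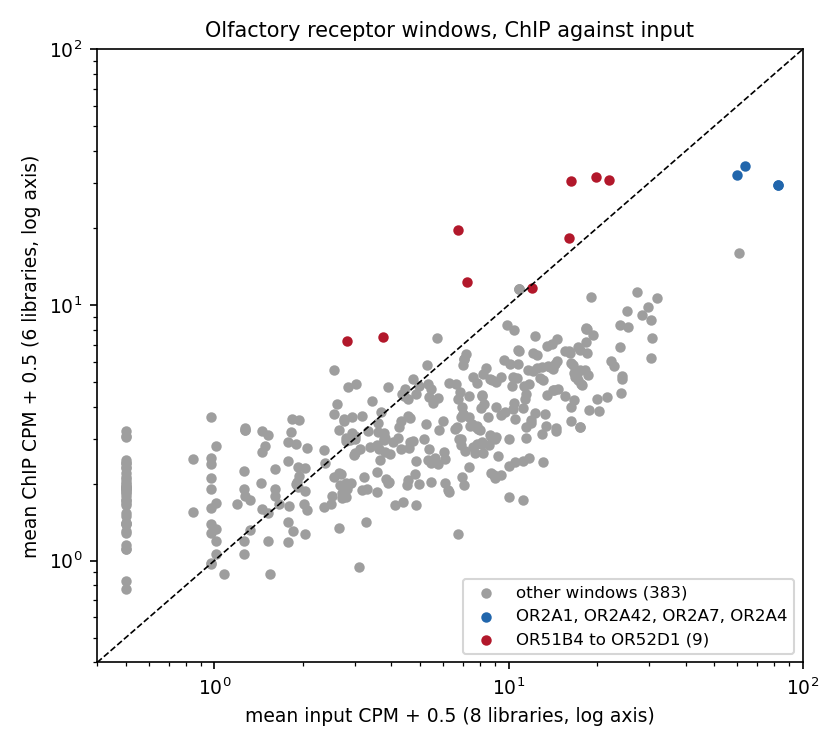
Mean ChIP CPM over 6 libraries against mean input CPM over 8 libraries for each receptor window, both plus 0.5 and on log axes, with a dashed line of equality. OR2A1, OR2A42, OR2A7 and OR2A4 (blue), 4 of the 5 highest in input, lie under the line, and 8 of the 9 windows from OR51B4 to OR52D1 (red) lie above it.

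The windows with the smallest p among the lower ones were OR3A2, OR1F1, OR5A1, OR56B4, OR51G2 and OR2A1. They were picked by that p from members that pass the filter more easily through input. Their differences are therefore not those of a typical member. With no filter their calls stayed, at a log2 difference of -2.32 for OR3A2 and -2.63 for OR5A1. OR3A2 had 10, 16, 8, 11, 11 and 4 counts in ChIP (DMSO replicates 1 and 2, DMSO with peptide, Nutlin3a replicates 1 and 2, Nutlin3a with peptide). Its mean was 5.72 CPM ± 2.58 (SD, n = 6) in ChIP and 29.9 CPM ± 15.2 (SD, n = 8) in input. Its log2 difference was -2.29 ± 0.50 (SE, adjusted p = 0.000559). OR1F1, on chromosome 16, had 15.4 CPM ± 4.01 in ChIP and 60.2 CPM ± 32.4 in input, with a log2 difference of -1.51 ± 0.34 (adjusted p = 0.000753). OR5A1, the receptor for the violet odorant beta-ionone, had 4.03 CPM in ChIP and 23.6 CPM in input (log2 difference -2.60 ± 0.63, adjusted p = 0.00148). OR56B4 and OR51G2, both class I, had log2 differences of -3.18 and -2.95 (adjusted p = 0.00286 and 0.00385).

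Besides OR1F1, the highest input windows of the family were near-identical copies of subfamily OR2A. OR2A1 and OR2A42 share 1 window on chromosome 7 (chr7:144317825-144318824, hg38), with 20, 81, 60, 37, 44 and 75 counts in ChIP in the order above. That window had 28.9 CPM ± 10.9 in ChIP and 81.7 CPM ± 22.6 in input, and its log2 difference was -1.05 ± 0.29 (adjusted p = 0.00492). OR2A7 on chromosome 7 had 34.4 CPM ± 8.44 in ChIP, the highest of all members, and 63.2 CPM ± 24.4 in input. OR2A4, on chromosome 6 inside ENPP3, had 31.7 CPM ± 8.62 and 59.3 CPM ± 17.8. Their log2 differences of -0.45 and -0.51 were not past the threshold (adjusted p = 0.214 and 0.164). OR2A7, OR2A4 and the OR2A1 window were lowest, in CPM, in ChIP of DMSO replicate 1. Near-identical copies can split or share reads, so the level of each is uncertain. OR10H5 on chromosome 19, the sixth of the highest in input, had 10.1 CPM ± 3.99 in ChIP and 31.5 CPM ± 13.3 in input and was lower in ChIP (-1.11 ± 0.42, adjusted p = 0.0368).

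Of the 9 members that reached the ChIP median of all windows, 5 had more CPM in ChIP than in input, and these 5 lay in 1 segment of chromosome 11. It runs from the start window of OR51B5, which is listed with a non-coding accession and so is no member, to OR51B4, and holds 9 members, OR52D1, OR51I2, OR51I1, OR51Q1, OR51J1, OR51M1, OR51B6, OR51B2 and OR51B4. All are class I, and 7 of them lie inside the RefSeq span of OR51B5, which covers 165.3 kb. Their summed ChIP level was 1.62 times input, with ChIP over input in 8 of 9, against 0.451 times for the other 387 members. By library and its same-titled input the ratio was 1.68 and 0.896 in DMSO replicates 1 and 2, 1.97 in DMSO with peptide, 2.19 and 1.43 in Nutlin3a replicates 1 and 2, and 0.837 in Nutlin3a with peptide. It was thus under 1 in 2 of the 6 libraries, and only 1 of the 9 members was called higher than input, so whether the segment is silent in these cells is not settled by these values. The segment was singled out after its values were seen.

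ChIP counts over this segment were high in both replicate 1 libraries. The inputs of those samples were also the highest over the 9 windows, at a mean of 19.0 CPM in DMSO replicate 1 and 15.9 CPM in Nutlin3a replicate 1 against 6.19 to 11.7 CPM in the other 6. The OR51B5 start window had 207 counts in DMSO replicate 1 and 143 in Nutlin3a replicate 1. It had 2 in DMSO replicate 2, 17 in Nutlin3a replicate 2, 7 in DMSO with peptide and 0 in Nutlin3a with peptide. In the inputs it had 0 counts in 7 libraries and 2 in Nutlin3a replicate 2. OR52D1, 17 kb away, had 131 and 67 counts in the replicate 1 libraries, 20 and 34 in DMSO and Nutlin3a replicate 2, and 43 and 28 with peptide. OR51Q1, at 83.5 kb, had 86 and 81 counts in replicate 1, 38 and 54 in replicate 2, and 30 and 33 with peptide. OR51B2, at 181.3 kb, had 31 and 24 counts in replicate 1, 1 and 3 in replicate 2, and 9 and 4 with peptide. For these 4 windows the replicate 1 libraries did not overlap the other 4 in counts or in CPM. They come from a segment singled out after its values were seen, and how many of all windows separate in this way was not counted.

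**Figure D4:**
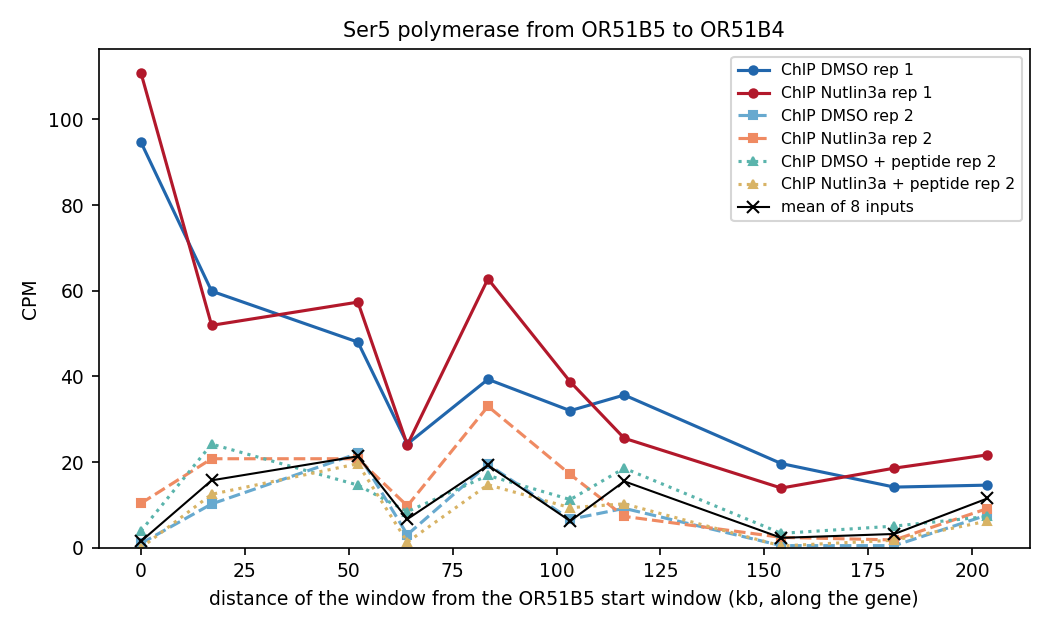
CPM of the OR51B5 start window (at 0 kb) and the 9 receptor windows up to OR51B4 in each ChIP library, with the mean of the 8 inputs in black. Both replicate 1 libraries (solid lines) start near 100 CPM and remain above the 4 replicate 2 libraries in every window.

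Between replicates, the log2 ratio of replicate 1 over replicate 2 of the OR51B5 start window was 5.51 in DMSO and 3.29 in Nutlin3a. By the smaller of the 2 ratios it ranked 18 of 28159 windows, a list led by DLGAP1-AS2 and short RNA genes such as RNU4-1, SNORD12 and MIR21. Among the 9 members the median ratio was 2.10 in DMSO and 1.28 in Nutlin3a. For the other 387 members it was 0.32 in DMSO and 1.31 in Nutlin3a, and for all windows -0.04 and 0.07. In DMSO the 9 windows thus stood further apart between replicates than the median of the others, and in Nutlin3a they did not. The labels give both replicates the same conditions, and what else differed between them was not tested.

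Tested against input, OR51J1 was the only member called higher, with 19.2 CPM ± 13.2 in ChIP and 6.26 CPM ± 7.46 in input (log2 difference 1.87 ± 0.64, adjusted p = 0.0221). Its counts were 70 and 50 in replicate 1, 13 and 28 in replicate 2, and 20 and 21 with peptide. The call was lost without DMSO replicate 1, without Nutlin3a replicate 1, without the input of Nutlin3a replicate 2, with total counts, with DESeq2 and with DMSO libraries alone. The other members of the 6 smallest p on the higher side did not pass. OR52D1 had a log2 difference of 1.14 (adjusted p = 0.0790) and passed under 6 alternatives, among them no filter (1.10) and the replicate number as a block (1.51). OR51Q1 passed with the block (1.27) and without the input of Nutlin3a with peptide replicate 1 (2.50), and OR51I2 without the input of DMSO replicate 2 (2.22). With all libraries and no block, the log2 difference was 0.78 for OR51I2 (adjusted p = 0.151), 0.79 for OR51Q1 (0.167) and 1.07 for OR51I1 (0.291). OR11L1, on chromosome 1, had 1.64 (0.269), and was the only one of the 6 outside this segment.

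Members listed for a known ligand or a reported place outside the nose all lay under the ChIP median of all windows, 15.7 CPM. Some stood well above the family's median of 2.67 CPM. Of 20 such genes listed by name, 19 were members, and their ChIP means ran from 0.845 CPM (OR6A2) to 11.1 CPM (OR51B4). The other, OR51B5, was no member, and its start window lay above that median, with 36.8 CPM in ChIP. OR51B4 had 11.1 CPM ± 5.97 in ChIP and 11.5 CPM ± 15.0 in input, and OR10H1, a class II receptor on chromosome 19, had 9.32 CPM ± 2.99 and 29.3 CPM ± 21.8. OR51E1 and OR51E2, receptors for short fatty acids that are known from prostate, had 3.91 and 2.56 CPM in ChIP. OR51E1 was lower in ChIP than in input (log2 difference -1.79 ± 0.65, adjusted p = 0.0302), and OR51E2 did not pass the filter. OR2W3, which had 4.82 CPM in ChIP and 18.1 CPM in input, was also lower (-1.51 ± 0.57, adjusted p = 0.0392). OR1D2, a receptor described in sperm, had 2.95 CPM in ChIP and 11.4 CPM in input, and OR2AT4, described in skin cells, had 3.93 and 13.1 CPM. OR7D4, the receptor for the steroid androstenone, had 3, 2, 7, 11, 7 and 1 counts in ChIP in the order above. OR1A1, OR1A2, OR7C1 and OR2T6 had 1.95, 3.63, 3.26 and 3.21 CPM in ChIP, and OR2J3, OR10J5 and OR2H2 had 1.88, 1.63 and 7.82 CPM. OR6A2, OR2C3 and OR2H1 had 0.845, 1.34 and 1.53 CPM in ChIP, and OR2C3 had no read in any input. With so few reads, the depth cannot show whether such windows carry polymerase.

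After Nutlin3a, no receptor window was called against DMSO among cells without peptide. The test covered 262 of 396 members, with 0 higher and 0 lower (edgeR's quasi-likelihood test, adjusted p under 0.05). On simulated counts the same fit called 2.99% of windows changed 2-fold and 83.3% of those changed 4-fold. The windows changed there had counts above the median of all windows. The 0 calls therefore do not show that receptor windows were unchanged. Of all 25901 windows tested, 0.00772% were higher and 0% lower. At an unadjusted p under 0.05, 3 members were higher and 0 lower, beside 1.27% and 1.05% of all windows, and DESeq2 called 0. Of the 262 members, 248 reached the filter's level of 5.36 CPM in Nutlin3a replicate 1 and 144 reached it in no other ChIP library, so the members tested were largely chosen by that library.

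The log2 differences were above 0 in 239 of the 262 members, with a median of 0.94 beside 0.04 over all windows. Without Nutlin3a replicate 1 the median was 0.01 over 120 members, and without Nutlin3a replicate 2 it was 1.50 over 253. Within pairs of the same replicate number, over all 396 members, the median log2 ratio of Nutlin3a over DMSO was 1.03 in replicate 1, with 356 members above 0. It was 0.18 in replicate 2 with 240 above 0, and -0.14 in the peptide pair with 177 above 0. Over all windows these medians were 0.10, 0.01 and 0.00. The summed receptor CPM was 2.17, 1.21 and 0.853 times as high with Nutlin3a in the 3 pairs. Without the 9 windows from OR51B4 to OR52D1 it was 2.47, 1.18 and 0.870 times as high. The higher median is thus that of 1 library, whose total count is also the lowest of the ChIP libraries, and the part of depth in it was not tested.

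Single members are given here for the smallest p in each direction. OR4F5, near the end of chromosome 1, had 19 and 9 counts with DMSO, 42 and 15 with Nutlin3a, 13 with DMSO and peptide, and 5 with Nutlin3a and peptide. Its log2 difference between Nutlin3a and DMSO was 1.54 ± 0.63 (adjusted p = 0.982). OR2T4 had 7 and 2 counts with DMSO and 20 and 9 with Nutlin3a (2.17 ± 0.99, adjusted p = 0.982). OR8J1 had 1 and 1 counts with DMSO and 20 and 4 with Nutlin3a, and 0 in both peptide libraries (3.96 ± 1.82, adjusted p = 0.982). In CPM the DMSO and Nutlin3a libraries of these 3 did not overlap, but they were picked by their small p, so this adds no support. How many of all windows separate in this way was not counted. Replicate 1 was the higher of the Nutlin3a pair in each of the 3. On the other side, OR10P1 had 13 and 13 counts with DMSO and 6 and 2 with Nutlin3a (-1.20 ± 0.92), OR1M1 had 9 and 13 against 4 and 4 (-1.01 ± 0.91), and OR51M1 had 78 and 18 against 33 and 12 (-0.57 ± 0.60). Their adjusted p was 0.982.

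With peptide against none, no receptor window was called either, beside 0% of all windows in each direction under both treatments. With DMSO the median log2 difference was -0.37 over 262 members, beside -0.02 over all windows, and without DMSO replicate 1 it was 0.12. With Nutlin3a the median was -1.70, with 36 of 262 above 0, and without Nutlin3a replicate 1 it was -0.10. These 262 members were largely chosen by Nutlin3a replicate 1, since 144 reached the filter's level in no other ChIP library. That library is in the comparator with Nutlin3a. The lower values with Nutlin3a, and those of the interaction below, were thus partly fixed in advance and are no result about the receptors. At an unadjusted p under 0.05, 2 members were lower and 1 higher with DMSO, beside 0.83% and 0.687% of all windows. With Nutlin3a 18 were lower and 0 higher, beside 1.88% and 0.564%, and DESeq2 called 0 in both. Without Nutlin3a replicate 2, which leaves replicate 1 as the only comparator, 4 of 253 were lower (1.58%), beside 112 of all 25771 windows (0.435%). Within replicate 2 the summed receptor CPM with peptide was 1.09 times that without under DMSO and 0.769 times under Nutlin3a. Each peptide group had 1 library, which was assumed to vary like the pairs. The interaction of Nutlin3a and peptide, tested in the same fit and on the same libraries, had 0 members called (0% of all windows), with 3 lower and 0 higher at an unadjusted p under 0.05, beside 0.637% and 0.413% of all windows. Its median was -1.22, and -0.15 without Nutlin3a replicate 1.

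Used as the reference for scaling, the receptor windows moved the whole table by replicate. Over 20724 windows with at least 10 counts on average, the median log2 ratio of Nutlin3a over DMSO was -0.06 in replicate 1, -0.02 in replicate 2 and 0.01 in the peptide pair with TMM. Scaled on the summed counts of receptor windows that overlap no other family, it was -1.18, -0.29 and 0.23. The counting error of the receptor sums alone gives 95% half-widths of 0.0677, 0.0896 and 0.0889. With the constants the authors deposited it was 0.74, 0.10 and 0.42, so in replicate 1 the deposited constants and the receptor windows moved the table in opposite directions. CDKN1A, a p53 target whose product p21 halts the cell cycle, had a fold of 2.32 with TMM in replicate 1, 4.03-fold with the deposited constants and 1.07-fold on receptor windows. In replicate 2 these folds were 2.83, 3.06 and 2.35. Without the 9 windows from OR51B4 to OR52D1 the replicate 1 fold on receptor windows was 0.942, and on those of even chromosomes 0.788, so its direction in replicate 1 turns. MDM2, a p53 target and its inhibitor, was 1.64-fold, 2.84-fold and 0.755-fold in replicate 1, and 1.91-fold, 2.07-fold and 1.59-fold in replicate 2. A scaling shifts every window alike, and under each of them replicate 1 had CDKN1A 1.28 and MDM2 0.77 log2 units above the median of all windows.

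**Figure D5:**
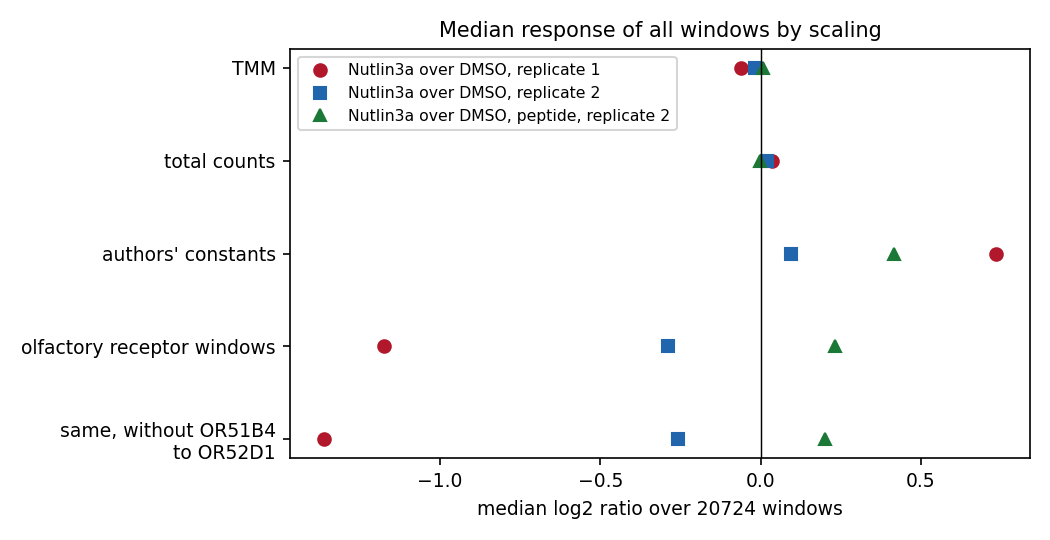
Median log2 ratio of Nutlin3a over DMSO across 20724 windows under 5 scalings, for replicate 1 (red circles), replicate 2 (blue squares) and the peptide pair (green triangles). With TMM and total counts all lie near 0, and on receptor windows replicate 1 lies at -1.18.

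In the authors' deposited table the constant that multiplies the counts was 1.82 for Nutlin3a replicate 1 and 0.595 to 0.748 for the other ChIP libraries. In the authors' scaled signal the receptor windows of Nutlin3a replicate 1 therefore summed to 7541.5, against 1166 to 2004 in the others. How the constants were derived is not given in the sources used here.

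The genes that carry the receptor's signal and that set up receptor choice in the nose were listed apart, and 29 of 30 listed symbols were found. Of 27 tested against input, 6 were higher in ChIP (22.2%, beside 24.5% of all windows) and 5 lower (18.5%, beside 11.5%), with a median log2 difference of -0.26. The higher ones were GNG13 and GNB1, which encode G protein subunits, ATF5, a stress-response transcription factor, CBX5 and KDM1A, which encode a heterochromatin protein and a histone demethylase, and ADCY3, the adenylyl cyclase of the pathway. GNG13 had 122 CPM ± 31.8 in ChIP and 31.7 CPM ± 10.2 in input (log2 difference 2.31 ± 0.26). The lower ones included GNAL, the olfactory G protein alpha subunit, the channel subunit CNGA4, OMP, a protein of mature olfactory neurons, and PDE1C, a phosphodiesterase. OMP had 5.93 CPM ± 2.70 in ChIP and 27.2 CPM ± 17.4 in input (-1.71 ± 0.55). CNGA2, the main subunit of the olfactory channel, had 1.48 CPM in ChIP and was not tested. With Nutlin3a 26 were tested and 0 were called in either direction, with a median log2 difference of -0.07.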

How the data were processed

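The 6 ChIP and 8 input libraries were grouped by sample title and treatment label. The authors deposited raw read counts per 1000 bp window on hg38, per the file headers and the submitters' processing notes. The aligner, counting tool and read filters are not given in the sources used here. A scaled signal deposited by the authors equals these counts times 1 constant for each ChIP library, and was used only as an alternative scaling. No sample column was left unused (0).

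Tests were run in R 4.3.3 with edgeR 4.0.16 (quasi-likelihood, TMM, Benjamini-Hochberg adjustment over all windows tested, threshold 0.05). ChIP against input used 1 fit of 8 group means to 14 libraries, with a filter of mean 5 CPM, TMM factors of 0.803 to 1.14 and a biological coefficient of variation of 32.2%. Treatments used the 6 ChIP libraries in 1 fit with 4 group means, filtered by filterByExpr at a minimum count of 10, with 2 residual degrees of freedom. Within-pair ratios used a prior of 2 counts at the mean depth, scaled to each library. DESeq2 1.42.0 was an alternative, and Python 3.11.15 with scipy 1.17.1 gave shares and intervals. Other alternatives were total counts, other filters, a replicate block, leaving out each library, and scaling on receptor windows. Window medians and counts over members have no test.

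Members named were the 6 highest in ChIP and in input, those with the smallest p (6 a direction against input, 3 for Nutlin3a), and 20 listed by name. OR51B2, OR51B6 and the printed sequences' genes were chosen after their values were seen. The members and lists were chosen with earlier results of these data known. The fits were tested on simulated data. A listed gene is not reported here.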

Additional observations from a re-analysis of the deposited data

Results flagged for a closer look

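The share of counts in receptor windows in ChIP of Nutlin3a replicate 1, 0.321107%, lay far from the other 5 ChIP libraries: its gap to the next, DMSO replicate 1 at 0.139%, was 0.803 of the whole range, above Dixon's 95% critical value of 0.625 for 6 samples. The 6 libraries span 4 conditions, and chance alone marks about 1 in 20 groups. The share in the 8 inputs and the number of windows at 0 in ChIP and in input held no such library. The same library had the lowest total count of the ChIP libraries and the largest constant in the authors' deposited table, and their part in the value was not tested.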

How the results depend on the processing

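Against input, the number of receptor windows lower in ChIP was 26, and it was 53 with total counts, 44 with DESeq2 size factors, 54 with DESeq2, 5 with the DMSO libraries alone and 7 without ChIP and input of Nutlin3a replicate 1. Of all windows tested the share lower moved too, from 11.5% to 22.7%, 19.0%, 20.6%, 1.55% and 4.79% in that order, beside 14.9%, 30.5%, 25.3%, 31.0%, 3.40% and 4.35% of members. The number higher was 1, and it was 0 with total counts, with DESeq2 and with the DMSO libraries alone, and 3 with no filter. Leaving out each library in turn gave 14 to 28 lower and 0 to 2 higher; the 14 came without ChIP of Nutlin3a replicate 2 and the 16 without the input of Nutlin3a replicate 1. The cause of these moves was not tested, beside the fewer samples of the DMSO libraries alone.

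For Nutlin3a against DMSO the counts of 0 were also 0 in every alternative run, and for the difference of responses and peptide with DMSO too. For peptide with Nutlin3a, leaving out each library gave 0 to 4 lower, with the 4 without Nutlin3a replicate 2. The median log2 difference of 0.94 after Nutlin3a was 1.62 with the authors' constants and 0.15 with receptor counts as library size, and 0.0069 to 1.50 when each library was left out. Scaled on receptor windows of odd chromosomes alone, the median of all windows in replicate 1 was -1.10, and on even chromosomes -1.62, against -1.18. The mean shares of ChIP and input moved by less than 1 SD in the 3 alternatives run.

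With the replicate number as a block, 19 receptor windows were lower and 3 higher against input. These are 10.9% and 1.72% of members tested, beside 10.9% and 23.8% of all windows, so the share lower was that of all windows. After Nutlin3a 0 were called, with a median of 0.92, beside 0.151% of all windows higher. The peptide medians were 0.36 with DMSO and -0.74 with Nutlin3a. Deviations of same-numbered libraries from their group means correlated at 0.414 over 20724 windows and 0.602 over 61 receptor windows. There were only 2 pairs, and the labels say no more than the number.

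Among the values of single named members under alternatives, 320 kept their call and direction, 12 lost the call, 9 gained it and 4 moved with no test passed. Depth limits single windows: the inputs held 161719 to 359276 counts, and the median receptor window had 0 to 1 input counts.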
